A study of Mus musculus with 18 samples.

Results

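The cells described here are those that the authors' detailed annotation of splenic CD4+ T cells names Tfh, for T follicular helper cells. Every cell whose annotation holds that name was taken, which gave 754 of 26652 cells, or 2.83% of all cells. They form 15.4% of the 4897 cells that the authors class as activated conventional T cells (Tconv), and the 4143 other activated Tconv cells are the reference for their identity. Of the Tfh cells, 468 were ∆Foxp3 cells and 286 were wild-type (WT) cells.

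Follicular helper T cells are the CD4+ cells that enter B cell follicles and help B cells form germinal centres and make high-affinity, switched antibody. The transcription factor Bcl6 directs this fate and restrains the Th1, Th2 and Th17 programmes, the chemokine receptor Cxcr5 guides the cells to the follicle, and the cytokine Il21 together with Cd40lg and Icos carries the help. Foxp3 is the lineage factor of regulatory T cells (Treg), which hold conventional T cells, follicular helper cells among them, in check, and mice without functional Foxp3 develop fatal lymphoproliferation.

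The study profiled single cells of mouse spleen, sorted as live TCRβ+CD4+ cells from males on the C57BL/6 (B6) background, by droplet sequencing of 3' transcript ends with unique molecular identifiers (UMIs, tags that let each captured transcript be counted once). The 18 samples form 8 groups. In the first experiment, run with version 2 (V2) of the kit, the ∆Foxp3 group had 2 samples of 3-week mice that carry the Foxp3DeltaEGFPiCre allele, a nonfunctional Foxp3 reporter with EGFP and Cre, together with ROSA-YFP. The matching WT group had 2 samples of 3-week mice with the functional Foxp3-IRES-GFP reporter. In the second experiment, run with version 3 (V3), there were 2 samples of 3-week ∆Foxp3 mice of the same genotype, and 2 of 9-week WT mice with Foxp3-IRES-GFP and the CD45.1 allele. A further 4 samples of 9-week WT mice of that genotype were sorted, 2 as GFP+ Treg and 2 as GFP- Tconv. The labels do not say whether these are the same animals. Genotype and age thus change together in the V3 comparison of ∆Foxp3 with WT, and cannot be told apart there. The last 2 groups, of 3 samples each, came from mixed bone marrow chimeras, in which 7-week recipients received 1000 rad and CD3-depleted marrow cells, 50% from each donor. The ∆Foxp3 donor also carried CD45.1 and CD45.2, the WT donor CD45.1 alone, and spleens were taken 10 weeks after transplantation, at a labelled age of 16 weeks. In these hosts the ∆Foxp3 cells develop beside WT cells that can form Treg. Every ∆Foxp3 group carries ROSA-YFP and Cre, which no WT group does.

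The V3 samples were told apart by hashtags, antibody-linked 15-base oligonucleotides that mark all cells of a sample before pooling. They are printed because they show which samples may share an animal. Same-numbered ∆Foxp3 and WT chimera samples carry the same hashtag and are taken below as the cells of 1 chimera. Each other V3 group used 1 hashtag in both 10x channels, called tube A and tube B. The sequences are those given with the samples, 5′ to 3′.
Chimera mouse 1, hashtag 2: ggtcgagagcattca
Chimera mouse 2, hashtag 3: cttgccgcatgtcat
Chimera mouse 3, hashtag 4: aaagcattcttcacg
∆Foxp3 at 3 weeks, hashtag 5: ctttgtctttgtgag
WT at 9 weeks, hashtag 6: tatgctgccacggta
The 2 samples of a V3 group outside the chimeras may therefore be 1 mouse run in 2 channels, and the labels name no separate animals for the V2 samples either. All p-values below measure the spread between these samples, which may be technical. The V3 fits estimate a spread shared by all V3 groups in them. Their p-values for ∆Foxp3 against 9-week WT mice thus also draw on the chimera samples.

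Samples held 148 to 5271 cells, with median depths of 2774 to 3143 UMIs per cell in V2 and 4731 to 8856.5 in V3. The UMIs summed over the Tfh cells of 1 sample ranged from 49909 to 532536, and 15 samples had at least 10 Tfh cells, the minimum used for expression. In 2 chimera samples, the ∆Foxp3 cells of mouse 2 and the WT cells of mouse 1, the deposited strain entry names the other donor than the label. The resting Tconv cells of those samples had 20.5 and 147 CPM of Ctse (CPM are UMIs scaled to the same total in every library), against 15.4 to 15.9 and 159 to 163 in the other ∆Foxp3 and WT chimera samples. The labels were followed, and the chimera comparisons are also given without one or the other of these samples. Cells of different samples shared 99 barcodes, and 3 of those cells were Tfh cells.

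The cluster carried the markers of its name. Levels were computed from the UMIs summed over the Tfh cells of each sample, in CPM, and set against the other activated Tconv cells of the same sample as a log2 ratio with a prior count of 2. Because the clusters were drawn from these same genes, all such ratios are descriptions without a test. Cxcr5 had mean levels of 74.1 CPM in Tfh cells and 10.5 CPM in the other activated cells, and its log2 ratio had a median of 2.43, between 0.22 and 6.07 over the 15 samples. Pdcd1, which encodes the inhibitory receptor PD-1, had 224 against 36.5 CPM, with a median log2 ratio of 2.36 (0.61 to 4.93). Tox2, a nuclear factor of the Tfh programme, had 67.1 against 15.4 CPM and a median of 1.75 (0.32 to 5.09). These 3 genes were higher in the Tfh cells of all 15 samples, as was Il21, with 36.7 against 3.92 CPM and a median of 2.44 (1.28 to 5.09). Bcl6 had 43.2 against 4.47 CPM and a median of 2.11, but its log2 ratio ranged from -1.27 to 5.67 and lay above 0 in 13 of 15 samples. The exceptions were the V2 WT samples, whose Tfh cells had no Bcl6 UMI. The plot of the core markers by class shows the same descent from Tfh to other activated cells in each sample, apart from those Bcl6 lines.

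**Figure D1:**
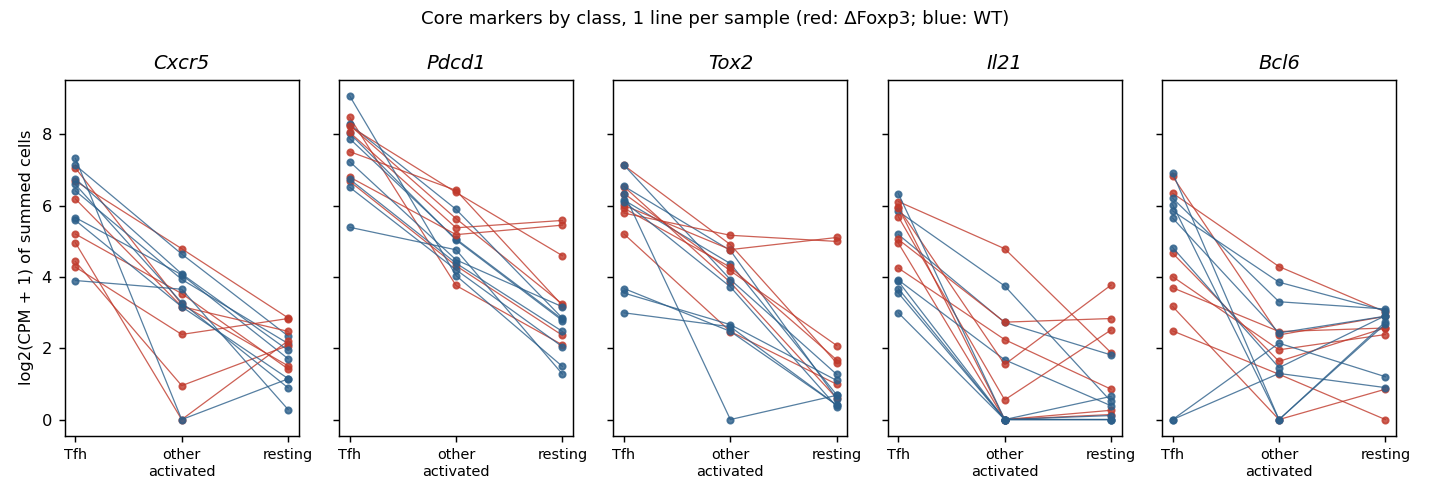
Levels of Cxcr5, Pdcd1, Tox2, Il21 and Bcl6 in Tfh cells, other activated Tconv and resting Tconv, as log2(CPM + 1) of summed cells, with 1 line for each of the 15 samples with at least 10 Tfh cells (red ∆Foxp3, blue WT). The first 4 genes are highest in Tfh cells in every sample, while Bcl6 is at 0 in the Tfh cells of the 2 WT samples of V2.

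Among all annotated clusters, the Tfh cells had the highest median level of each core marker, with no other Tconv cluster near it in Cxcr5. Over samples, Tfh cells had median levels of 72.1 CPM for Cxcr5, 235 for Pdcd1, 68.5 for Tox2, 32.3 for Il21 and 27.4 for Bcl6. For Cxcr5 and Pdcd1 the next cluster was activated Treg (769 cells), with 24.2 CPM for Cxcr5, 127 for Pdcd1, 28.5 for Tox2 and 4.09 for Bcl6, and a median of 0 for Il21. Other clusters shared single markers: NKT cells had 75.7 CPM of Pdcd1 and the tissue-like Tconv cells 23.2 CPM of Tox2.

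The positions of the core marker genes in the mouse genome (GRCm38) are chromosome 9, 44511787 to 44561877 on the minus strand for Cxcr5, and chromosome 1, 94038305 to 94052553 on the minus strand for Pdcd1. Tox2 lies on chromosome 2, 163203125 to 163324170, plus strand. Il21 lies on chromosome 3, 37222759 to 37232636, and Bcl6 on chromosome 16, 23965052 to 23988852, both on the minus strand. Il21 and Pdcd1 are targets of T cell receptor signals, which act in part through NFAT and AP-1, so the 250 bases before their starts are shown (RefSeq, GRCm38.p6, 5′ to 3′ on the gene's strand). Capitals mark the NFAT core GGAAA, searched on both strands and so also seen as TTTCC.
Il21, chr3:37232637-37232886, minus strand: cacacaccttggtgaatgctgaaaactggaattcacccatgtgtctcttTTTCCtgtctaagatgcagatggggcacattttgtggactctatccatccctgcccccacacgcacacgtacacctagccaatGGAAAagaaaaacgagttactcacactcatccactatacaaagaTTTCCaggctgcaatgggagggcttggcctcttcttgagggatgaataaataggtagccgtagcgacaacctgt
Pdcd1, chr1:94052554-94052803, minus strand: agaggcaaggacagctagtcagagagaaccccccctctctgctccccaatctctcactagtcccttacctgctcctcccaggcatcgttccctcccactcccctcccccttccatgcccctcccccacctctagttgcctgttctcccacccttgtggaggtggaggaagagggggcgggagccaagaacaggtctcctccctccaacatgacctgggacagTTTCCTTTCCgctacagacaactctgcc
The Il21 window held 3 matches and the Pdcd1 window 2, which adjoin. Of all 32851 promoters in the RefSeq table, 55.6% held the same letters in a window of this length. The AP-1 letters TGANTCA stood in neither window, and in 6.75% of all.

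In single cells the markers were sparse. At least 1 UMI of any core marker was found in 50.3% of the 296 Tfh cells of V2 and in 73.6% of the 458 of V3, against 17.1% and 30.5% of the other activated cells. Resting Tconv cells showed 2.55% and 9.56%. Bcl6 alone was seen in 3.29% of resting and 2.96% of other activated cells of V3. When every cell was thinned to 1500 UMIs, the shares were 30.1% and 43.2% in Tfh cells, 9.46% and 10.4% in other activated cells, and 1.51% and 3.07% in resting cells. The order of the 3 classes was thus the same at equal depth. All 5 markers together were seen in 8 of the 458 V3 Tfh cells.

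Beyond the core markers, the Tfh cells differed from other activated Tconv cells in inhibitory and costimulatory receptors and in helper cytokines. Among the 5716 genes with at least 20 CPM, 144 (2.52%) had a median at least 2-fold higher in Tfh cells, and 176 (3.08%) a median at least 2-fold lower. The median over all of these genes was 0.00 on the log2 scale. Of genes higher in every sample, Lag3, an inhibitory receptor that binds MHC class II, ranked first, with 200 against 40.7 CPM (log2 ratio 3.14). Gpm6b, a membrane proteolipid, followed with 201 against 22.3 CPM (3.12), and Marcksl1, an actin-linked signalling protein, with 111 against 10.8 CPM (3.03). Cd200, a ligand of an inhibitory myeloid receptor, had 260 against 34.0 CPM (2.78). Tbc1d4 had 358 against 53.4 CPM (2.70), and Folr4, also called Izumo1r and known from Tfh and Treg cells, 1014 against 189 CPM (2.54). Some of these receptors were also high in activated Treg. Their median levels were 887 CPM for Folr4, 408 for Icos, 318 for Ctla4 and 51.7 for Cd200. The medians of Tfh cells were 1110, 277, 96.9 and 244 CPM.

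All 5 core markers stood above the 2-fold mark, as did the 5 of 16 helper cytokines with at least 20 CPM (median 2.41). Il21 and Tnfsf11, like Cxcr5, Tox2 and Bcl6, reach 20 CPM in Tfh cells alone, so these counts are favoured by that minimum. The cytokine genes were Il21, Tnfsf8 (CD30 ligand; 412 against 66.3 CPM, log2 ratio 2.52), Tnfsf11 (RANK ligand; 100.2 against 17.2 CPM, 2.41), Ifng (1.80, above 0 in 14 of 15 samples) and Tnf (1.03). Ifng is better known as the Th1 cytokine. Of 12 Tfh transcription factors, 6 were at least 2-fold higher and none lower, with a median of 1.19. Tox (2.18, 325 against 68.0 CPM), Pou2af1, a coactivator shared with B cells (2.28), and Id3, which restrains E proteins in early Tfh cells (1.42), were among the 6. Batf (0.96), Maf (0.64) and Tcf7 (0.62) stayed under the 2-fold mark, though Tcf7 was higher in 15 of 15 samples. Among 20 surface and costimulatory genes 9 were higher, with Btla at 1.27, Slamf6 at 1.04 and Nt5e (CD73) at 1.501. Icos had a log2 ratio of 0.65 and was above 0 in 12 of 15 samples.

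Genes induced through the T cell receptor were also high. Of 13 such genes, 6 were at least 2-fold higher and none lower, led by Egr2 (3.54, 13 of 15 samples), Tnfrsf9 (1.96), Nr4a1 (1.91) and Nfatc1 (1.54, 15 of 15 samples). Of 7 inhibitory receptors 5 were higher, with a median of 1.27. Of 8 genes known from Treg and follicular regulatory cells, 2 were higher and none lower (median 0.85), while Ikzf2 and Ctla4 both had 0.95.

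Among the genes that were low in Tfh cells were members of the tissue-homing and cytotoxic lists. Among genes lower in every sample, Ccr2, an inflammatory chemokine receptor, was lowest, with 10.1 against 156 CPM and a log2 ratio of -4.07. Ccl5, a chemokine of effector T cells, had 1363 against 4214 CPM (-3.73), and Ly6c2, a surface marker of effector T cells, a ratio of -3.66. Of 17 Th1 and cytotoxic genes 11 were at least 2-fold lower and 1, Ifng, was higher (median -1.50), with Gzmb at -2.66. Tbx21, the Th1 master factor, and Cxcr3 differed little, at -0.42 and -0.43. Of 9 tissue-homing genes 6 were lower (median -1.51), with Cxcr6 lower in every sample (-2.12). Klf2 (-1.86), which keeps T cells circulating and opposes the Tfh fate, Selplg (-1.55) and Id2 (-1.50), an antagonist of E proteins, were lower in each of the 15 samples. Their lists as a whole differed little. Of 8 factors opposing Tfh 3 were at least 2-fold lower and 1 was higher (median -0.17). Of 7 follicle-homing genes 2 were lower and 1 was higher (median 0.02). Of 15 activation and memory genes 10 were lower (median -1.70), with Crip1 at -1.93 and S100a4 at -1.86. Of 15 proliferation genes 13 were lower (median -2.05), but the reference holds the 594 cells of a dividing Tconv cluster. Without that cluster and NKT cells 3 of the 15 were lower (median -0.53), Top2a moved from -2.05 to 0.23 and Mki67 from -1.70 to -0.03, and 138 genes in place of 176 were lower in all. The plot of list members shows the medians of core markers and helper cytokines above 0. Those of the cytotoxic, tissue-homing, activation and proliferation lists lie below 0. Set against resting Tconv cells in place of other activated cells, 446 genes were at least 2-fold higher and 98 lower, and Ccl5 (0.96) and Lgals3 (0.63) were then on the higher side.

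**Figure D2:**
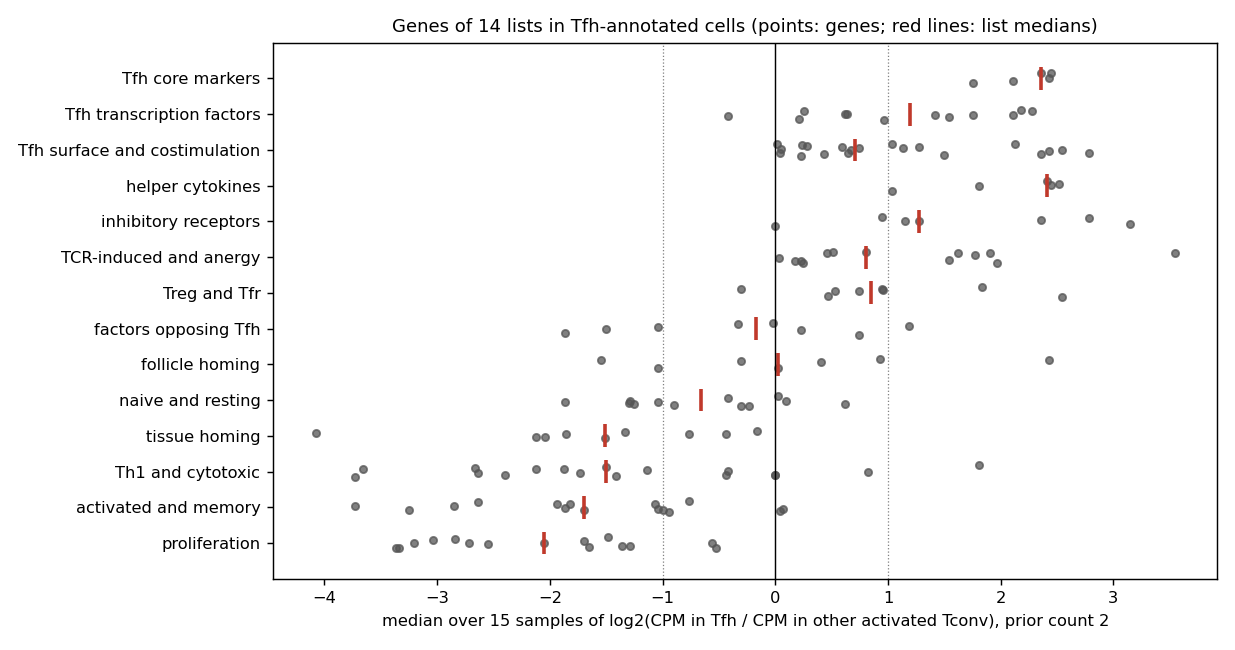
Each point is a gene with at least 20 CPM, placed at its median log2 ratio between Tfh and other activated Tconv cells over 15 samples, with red lines at list medians and dotted lines at 2-fold. Core markers and helper cytokines have medians of 2.36 and 2.41, while the Th1 and cytotoxic, activation and memory, and proliferation lists have -1.50, -1.70 and -2.05. Without the dividing and NKT clusters in the reference the proliferation median is -0.53.

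Markers of other cell types were low but present. At least 2 UMIs of such markers were found in 39.5% of Tfh cells and 48.5% of other activated cells. CD8 and NK markers summed to 0 to 56.1 CPM in Tfh cells and to 25.8 to 275 CPM in other activated cells. B cell markers summed to 139 to 486 CPM in Tfh cells, most of it Cd74 and Ighm. The defining B cell gene Ms4a1 had 2 UMIs over all Tfh cells, and the plasma cell gene Sdc1 and the myeloid gene Itgam had 0. Mitochondrial transcripts were lower in the Tfh cells of the V3 ∆Foxp3 samples (48646 to 49555 CPM) than of 9-week WT samples (76576 to 85247 CPM). The other activated cells of these samples differed in the same direction, with 45389.5 to 47504.5 against 66402 to 67080 CPM.

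The share of Tfh cells was higher in ∆Foxp3 than in WT spleens at 3 weeks. Tfh cells were 147 of 3290 cells (4.47%, 95% exact binomial interval 3.79 to 5.23) and 71 of 1442 cells (4.92%, 3.87 to 6.17) in the 2 ∆Foxp3 samples of V2. They were 28 of 5271 cells (0.531%, 0.353 to 0.767) and 50 of 3918 cells (1.28%, 0.949 to 1.68) in the 2 WT samples. The groups did not overlap, with means of 4.70 ± 0.322% and 0.904 ± 0.527% (SD, n = 2 each). Tested on the cell numbers of all clusters with edgeR's quasi-likelihood method, the share rose by 2.39 on the log2 scale (SE 0.47, Benjamini-Hochberg adjusted p = 0.00367). In that test activated Treg (2.02, adjusted p = 0.00367), tissue-like Tconv (1.67, 0.00788) and Th1 cells (1.25, 0.0184) rose too. So did dividing Tconv (1.78, 0.0300), a further activated Tconv cluster (2.04, 0.0184) and the Treg_typeA cluster (7.51, 0.000221). Resting Treg had -1.30 (0.0159), and the remaining clusters did not pass. For the Tfh share a two-sided exact permutation test over 2 against 2 samples gave p = 0.333, the smallest it can give. The intervals cover counting error only, and a share cannot tell more Tfh cells from fewer cells of other clusters.

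As a share of the activated Tconv cells, the same samples gave 20.5% and 12.9% in ∆Foxp3 and 4.75% and 10.2% in WT mice. The log2 difference of 1.16 did not pass the test (edgeR adjusted p = 0.257). Activated Tconv cells were themselves 21.8% and 38.2% of the ∆Foxp3 samples and 11.2% and 12.5% of the WT samples. The rise over all cells lost its call when ∆Foxp3 A (adjusted p = 0.185), ∆Foxp3 B (0.177) or WT A (0.0895) was left out of the edgeR fit, with log2 differences of at least 1.87.

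In the V3 samples the Tfh share of ∆Foxp3 mice at 3 weeks was 4.30% (43 of 1001 cells, 3.13 to 5.74) and 5.66% (53 of 936, 4.27 to 7.34). In WT mice at 9 weeks it was 1.97% (16 of 814, 1.13 to 3.17) and 4.26% (15 of 352, 2.40 to 6.93). The highest WT sample lay just under the lowest ∆Foxp3 sample. The log2 difference of 0.80 did not pass (edgeR adjusted p = 0.506). Of activated Tconv cells, Tfh cells were 9.35% and 11.9% in ∆Foxp3 and 13.4% and 21.4% in WT samples, so the direction was the opposite (log2 -0.66, edgeR adjusted p = 0.390). Activated Tconv cells were 46.0% and 47.4% of the ∆Foxp3 samples against 14.6% and 19.9% of the WT samples.

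In the chimeras, the 2 genotypes of 1 host can be set side by side. ∆Foxp3 cells held 1.69% Tfh cells in mouse 1 (36 of 2136, 1.18 to 2.33), 8.47% in mouse 2 (77 of 909, 6.74 to 10.5) and 1.98% in mouse 3 (41 of 2075, 1.42 to 2.67). WT cells held 3.61% (27 of 747, 2.40 to 5.22), 5.46% (101 of 1850, 4.47 to 6.59) and 3.58% (30 of 839, 2.43 to 5.07). The ∆Foxp3 share was thus lower than the WT share of the same host by 1.93 and 1.60 percentage points in mice 1 and 3, and higher by 3.01 points in mouse 2. Group means were 4.04 ± 3.84% and 4.22 ± 1.08% (SD, n = 3 each), with a log2 difference of -0.21 (edgeR adjusted p = 0.821, two-sided exact permutation p = 1.0). Of activated cells the shares were 13.1%, 36.0% and 16.0% for ∆Foxp3 and 17.0%, 32.3% and 19.6% for WT cells (log2 -0.14, edgeR adjusted p = 0.730).

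The 10x channel moved with these shares. Each of the 6 hashtags that marked Tfh cells in both channels gave a higher share in tube B, by 1.37 to 3.32 percentage points, as the plot of channel pairs shows. In the chimeras the ∆Foxp3 cells of mouse 2 and the WT cells of mice 1 and 3 were in tube B, so for each mouse the sign of the genotype difference and the channel cannot be told apart. The edgeR difference between the genotypes was -1.29 (adjusted p = 0.00321) without the ∆Foxp3 cells of mouse 2. It was -0.97 (adjusted p = 0.0165) without both samples of mouse 2. Without the WT cells of mouse 1 it was -0.29 (adjusted p = 0.812). It stood at 0.18 without the ∆Foxp3 cells of mouse 1, 0.13 without those of mouse 3 and 0.06 without the WT cells of mouse 2, so the direction rests on which mouse is counted.

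**Figure D3:**
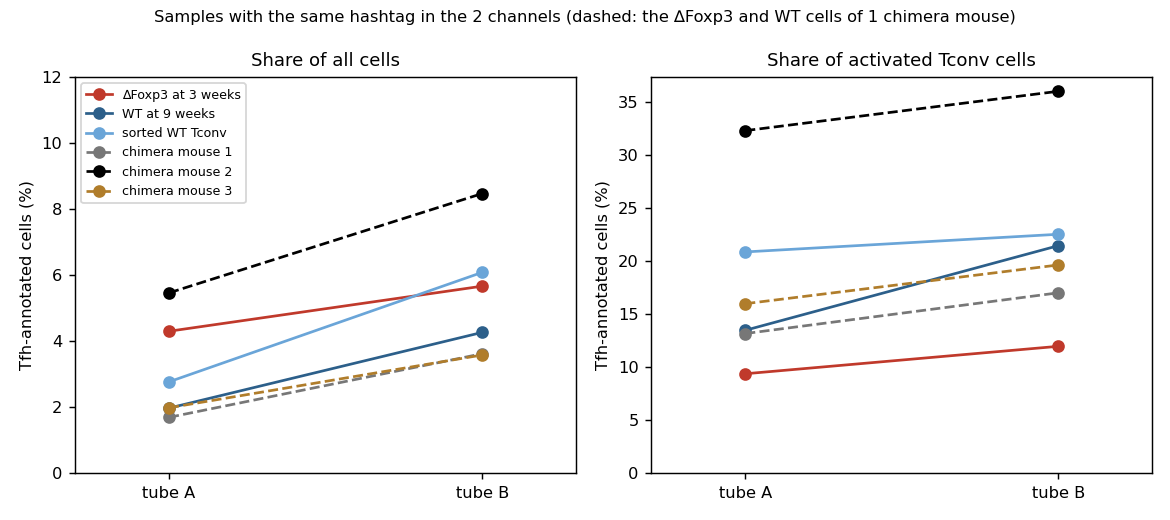
Tfh cells as a percentage of all cells and of activated Tconv cells in samples that carry the same hashtag in tube A and tube B, with lines joining the pair and dashed lines for the ∆Foxp3 and WT cells of 1 chimera. All 6 lines rise to tube B, by 1.37 to 3.32 percentage points of all cells.

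∆Foxp3 cells from chimeras and from 3-week ∆Foxp3 mice had overlapping Tfh shares of all cells (log2 -0.42, edgeR adjusted p = 0.681, two-sided exact permutation p = 1.0). Of activated cells the chimera samples lay above both ∆Foxp3 samples, with 13.1% to 36.0% against 9.35% and 11.9%. That log2 difference of 1.01 did not pass (edgeR adjusted p = 0.0945, two-sided exact permutation p = 0.2). Without the ∆Foxp3 cells of mouse 2 the share of all cells fell by 1.43 on the log2 scale (edgeR adjusted p = 0.00321). WT cells of chimeras and of 9-week mice differed by 0.59 (edgeR adjusted p = 0.607). Among sorted cells, GFP- Tconv held 10 of 362 (2.76%, 1.33 to 5.02) and 9 of 148 (6.08%, 2.82 to 11.2) Tfh cells. GFP+ Treg held 0 of 331 and 0 of 231, upper limits of 1.11% and 1.58%. The plot of shares by sample sets all groups together.

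**Figure D4:**
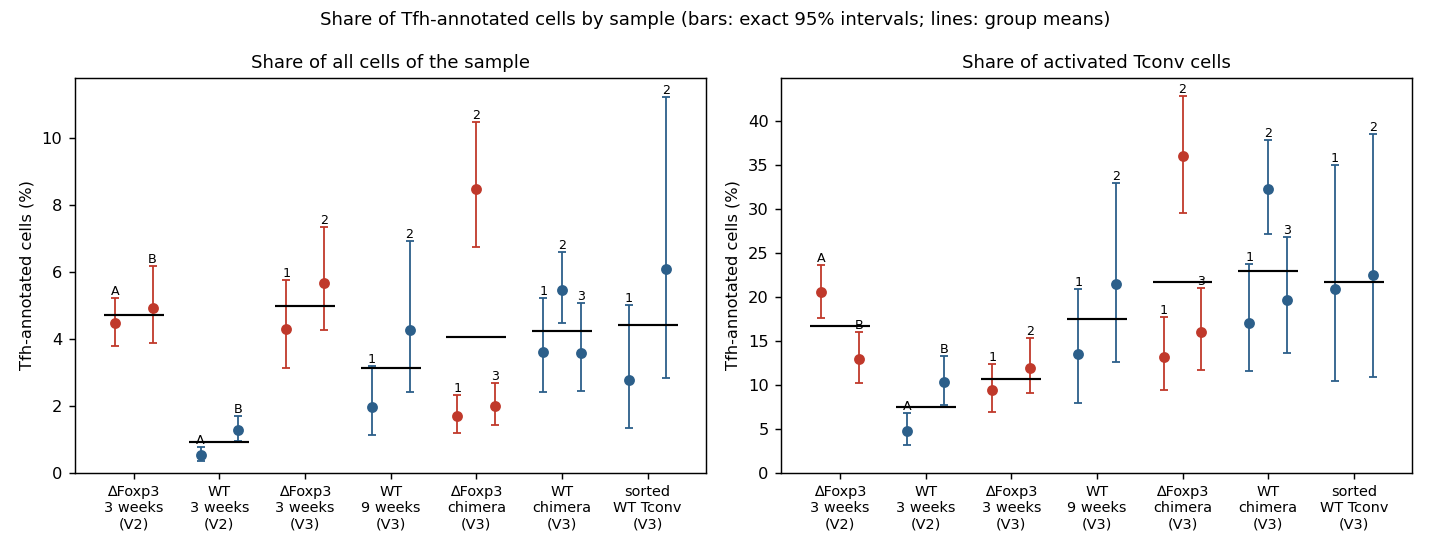
Tfh cells as a percentage of all cells and of activated Tconv cells in each sample, with exact 95% intervals as bars and group means as lines. Of all cells, the V2 ∆Foxp3 samples (4.47% and 4.92%) lie above the V2 WT samples (0.531% and 1.28%), while the chimera groups overlap.

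The expression of Tfh cells was compared between genotypes on the UMIs summed per sample, with edgeR's quasi-likelihood test. In V2, with 218 ∆Foxp3 and 78 WT Tfh cells, 6 genes rose and 1 fell at an adjusted p under 0.05, which is 0.268% of the 2614 genes tested, and 376 genes had an unadjusted p under 0.05. Ccl1, a chemokine that attracts Ccr8+ T cells, had 212 and 189 CPM in the ∆Foxp3 samples and 0 UMIs in both WT samples. The difference was at least 15.6-fold against a floor of 3 UMIs over the WT group (adjusted p = 0.0258). Sostdc1, a BMP and Wnt antagonist known from Tfh cells, had 174 and 138 CPM against 0 and 0, at least 12.4-fold (adjusted p = 0.0294). Neither gene was seen in the other activated cells of the WT samples, and in those of the ∆Foxp3 samples Ccl1 reached 4.94 CPM and Sostdc1 4.27 CPM.

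The other 4 genes that rose were expressed beyond the Tfh cells. Igtp, an interferon-induced GTPase, had 202 and 286 CPM against 35.4 and 34.9 (log2 difference 2.73, SE 0.41, adjusted p = 0.0493). Ly6a (Sca-1), also interferon-induced, had 1120 and 1931 against 342 and 342 CPM (2.14, SE 0.29, adjusted p = 0.0294). Rbm3, an RNA-binding protein of the cold response, had 1519 and 1548 against 531 and 467 CPM (1.62, SE 0.17, adjusted p = 0.0204). S100a11 had 1084 and 1203 against 460 and 453 CPM (1.31, SE 0.18, adjusted p = 0.0294). No ∆Foxp3 sample overlapped a WT sample in these genes. Resting Tconv cells of the same samples had Igtp at 573 to 599 against 94.1 to 94.8 CPM and Rbm3 at 1364 to 1366 against 310 to 340 CPM. Ctse, an endosomal protease, was the gene that fell, with 14.03 and 0 against 259 and 195 CPM (-4.48, SE 0.56, adjusted p = 0.0294).

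Of the fixed lists, 2 of 11 interferon genes and 1 of 13 activation and memory genes rose in V2, and in no other list did a gene outside these 3 pass. Lists are counted over the members that passed a filter on low counts, such as 12 of the 20 Th1 and cytotoxic genes. Those 12 had a median log2 difference of 1.82 and the 10 naive genes one of -1.26 with no call, beside -0.01 over all genes. Of the core markers only Pdcd1 and Tox2 had enough UMIs to be tested. Pdcd1 had 182 and 300 against 106 and 90.7 CPM (log2 1.24, edgeR adjusted p = 0.190), and Tox2 80.2 and 59.9 against 11.8 and 6.97 CPM (2.96, adjusted p = 0.0943). Klf2 (-1.83, adjusted p = 0.0871) did not pass either. The number of calls was 0 without WT A and 0 without WT B, 22 without ∆Foxp3 A and 16 without ∆Foxp3 B.

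In V3, with 96 ∆Foxp3 Tfh cells at 3 weeks and 31 WT Tfh cells at 9 weeks, 89 genes rose and 66 fell, 4.38% of the 3539 genes tested, and 607 had an unadjusted p under 0.05. The genes that rose included chemokines and cytotoxic genes. Ccl4, a chemokine of activated T and NK cells, had 1908 and 383 CPM in ∆Foxp3 samples and 0 UMIs in both WT samples, at least 53.6-fold against the floor of 3 UMIs (edgeR adjusted p = 0.000507, but 0.597 by DESeq2's Wald test). Its neighbour Ccl3 had 496 and 130 CPM against 0 and 0 (at least 14.96-fold), and Penk, which encodes proenkephalin, 154 and 528 CPM against 0 and 0 (at least 21.3-fold). Ccl5 had 3981 and 1621 against 0 and 85.7 CPM (log2 5.83, SE 0.60, adjusted p = 1.83e-06). Nkg7, a cytotoxic granule protein, had 1469 and 1174 against 13.7 and 118 CPM (4.17, SE 0.58, adjusted p = 0.000121). Il18r1, a receptor chain for Il18, had 308 and 265 against 0 and 10.7 CPM (5.43, SE 0.60, adjusted p = 4.55e-06). In all of these genes both ∆Foxp3 samples lay above both WT samples.

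Of 12 Th1 and cytotoxic genes 9 rose and none fell (median log2 difference 3.24, beside 0.01 over all genes), Id2 among them (593 and 776 against 233 and 193 CPM, 1.68, edgeR adjusted p = 0.000495). Of 14 activation and memory genes, a list that also holds Ccl5 and Il18r1, 10 rose and none fell (median 1.48). Lgals1, a galectin, was one (1351 and 1207 against 301 and 300 CPM, 2.07, edgeR adjusted p = 1.14e-06), and Lgals3 another (378 and 289 against 13.7 and 0 CPM, 5.64, adjusted p = 0.000199). Bhlhe40, a regulator of cytokine production, rose by 4.13 (281 and 173 against 27.4 and 0 CPM, adjusted p = 0.000553). Of 8 glycolysis genes 3 rose, which were Gapdh, Tpi1 and Pkm. Pkm lost its call with DESeq2's size factors (adjusted p = 0.0574), Pkm and Tpi1 in every fit with 1 sample left out, and Gapdh without the first WT sample (0.175). Batf, a factor needed for Tfh cells, rose by 1.76 (363 and 377 against 82.2 and 129 CPM, adjusted p = 0.0026), and Tnfsf8 by 1.53 (732 and 417 against 219 and 171 CPM, adjusted p = 0.045).

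Among the genes that fell in V3 were members of the naive and follicle-homing lists, both of which hold Ccr7. Of 7 follicle-homing genes 3 fell and none rose (median -2.06), and of 11 naive genes 3 fell and none rose (median -1.07). Gpr183 (EBI2), which positions cells at the follicle edge, had 30.2 and 22.5 against 110 and 214 CPM (log2 -2.70, edgeR adjusted p = 0.000194). Ccr7, the receptor for T zone chemokines, had 12.1 and 18.8 against 110 and 214 CPM (-3.35, adjusted p = 0.000719). Both chains of the Il6 receptor fell. Il6ra had 12.1 and 3.76 against 110 and 75.003 CPM (-3.62, adjusted p = 0.000656), and Il6st 9.07 and 13.1 against 110 and 96.4 CPM (-3.11, adjusted p = 0.000507). Both lost the call without cells that hold markers of other types (adjusted p = 0.101 and 0.0654).

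Of the 20 surface and costimulatory genes 5 fell and 1 rose. Nt5e had 3.02 and 5.63 against 82.2 and 139 CPM (log2 -4.49, edgeR adjusted p = 0.000564). Folr4 had 260 and 336 against 1110 and 793 CPM (-1.66, adjusted p = 0.000194), and Cd28 227 and 208 against 507 and 568 CPM (-1.33, adjusted p = 0.000421). Gpm6b, among the highest genes of the cluster's identity, had 15.1 and 30.0 against 247 and 343 CPM (-3.62, adjusted p = 0.000166). Cybb, a subunit of the phagocyte oxidase, had 0 UMIs in both ∆Foxp3 samples against 68.5 and 85.7 CPM, at least 22.5-fold lower (adjusted p = 0.00152). Tcf7 fell by 0.94 (adjusted p = 0.0343), Id3 by 1.90 (0.0342) and Foxo1 by 2.05 (0.046). Without the first WT sample the edgeR values were -0.40 for Id3 (adjusted p = 0.880) and -1.09 for Foxo1 (0.680), and Tcf7 lost its call in 6 of 10 alternatives, with -0.92 (0.221) without that sample. Ctse had 9.07 and 11.3 against 247 and 257 CPM (-4.55, SE 0.42, adjusted p = 6.83e-07), as in V2. Of 11 mitochondrial genes 7 fell (median -0.78), and summed mitochondrial transcripts were also lower in the other activated cells of these ∆Foxp3 samples.

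None of the 5 core markers passed in V3. Cxcr5 had 30.2 and 20.7 CPM in ∆Foxp3 Tfh cells and 95.9 and 107 CPM in WT Tfh cells, without overlap (log2 -2.06, SE 0.61, edgeR adjusted p = 0.0626). Il21 had 60.5 and 50.7 against 13.7 and 10.7 CPM (2.12, adjusted p = 0.199) and Bcl6 15.1 and 24.4 against 27.4 and 64.3 CPM (-1.21, adjusted p = 0.495). Pdcd1 (0.80, adjusted p = 0.556) and Tox2 (0.66, adjusted p = 0.728) overlapped between the groups.

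Several of these genes differed in the same direction in resting Tconv cells of the same samples. Resting ∆Foxp3 cells of V3 had 2023 to 2103 CPM of Ccl5 against 40.4 to 42.7 in WT, 648 to 663 CPM of Nkg7 against 7.39 to 8.25, and 512 to 591 CPM of Lgals3 against 3.98 to 7.39. They had 78.3 to 126 CPM of Ccr7 against 360 to 376. A UMI of Ccl5 was seen in 68.8% of ∆Foxp3 Tfh cells (median depth 7993.5 UMIs) and in 57.9% of ∆Foxp3 resting cells (7128), and in 43.8% and 41.8% after thinning. The part that free RNA has in the Ccl5 difference was not tested. Among these ∆Foxp3 Tfh cells, Cxcr5 was seen in 4 of the 66 with a Ccl5 UMI (8.87 CPM) and in 8 of the 30 without (53.3 CPM). Pdcd1 was seen in 40 and 16 (170 CPM in both), Tox2 in 16 and 9, Il21 in 16 and 8, and Bcl6 in 7 and 8. In the V2 ∆Foxp3 Tfh cells Cxcr5 had 55.1 CPM with and 57.7 CPM without a Ccl5 UMI. For Ccl4 the class differed: 13.5% of ∆Foxp3 Tfh cells had a UMI and 2.55% of resting cells, or 12.5% and 1.55% after thinning. Its level was 383 to 1908 CPM in these Tfh cells, 11.9 to 15.4 CPM in other activated cells and 22.8 to 99.0 CPM in resting cells. Penk likewise had 154 to 528 CPM in Tfh cells, 5.44 to 10.97 in other activated cells and 22.6 to 38.2 in resting cells.

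With cells that hold markers of other types left out, 33 genes were called in V3, and the counts without 1 library were 53 to 78. They were 66 without the first and 78 without the second ∆Foxp3 sample, and 70 without the first and 53 without the second WT sample. DESeq2's Wald test called 86 genes, 34 higher and 52 lower.

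In the chimeras, with 154 ∆Foxp3 and 158 WT Tfh cells, 1 gene rose and 1 fell, 0.0565% of the 3539 genes tested, and 143 had an unadjusted p under 0.05. Ctse had 30.0, 46.5 and 25.5 CPM in the ∆Foxp3 cells of mice 1 to 3 and 155, 251 and 242 CPM in their WT cells (log2 -2.53, SE 0.27, edgeR adjusted p = 1.91e-05). Crip1, a small LIM protein of memory cells, had 413, 298 and 388 CPM against 56.4, 190 and 85.4 CPM (1.47, SE 0.25, edgeR adjusted p = 0.0182). Neither gene overlapped between the genotypes. Resting cells had the same directions, with 15.4 to 20.5 against 147 to 163 CPM for Ctse and 646 to 847 against 172 to 237 CPM for Crip1, so neither difference was limited to Tfh cells.

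Outside these 2 genes no member of any list passed in the chimeras. The log2 differences of the 5 core markers lay between -0.12 and 0.45, with a median of -0.02, beside 0.01 over all genes, and the Th1 and cytotoxic list had a median of 0.35. Crip1 lost its call without the ∆Foxp3 cells of mouse 1 or 3 or the WT cells of mouse 3 or 1 (adjusted p = 0.0650 to 0.127), the last of which is a sample with the strain entry of the other donor. With the mouse as a block, 3 genes rose and 3 fell, 6 in all.

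∆Foxp3 Tfh cells of the chimeras were then set against those of 3-week ∆Foxp3 mice. This comparison shares the 3-week ∆Foxp3 samples with the V3 comparison above, and age, host and irradiation change together in it. Here 193 genes rose and 235 fell in the chimeras, 12.1% of the 3539 genes tested, and 899 had an unadjusted p under 0.05. Ccl5 had 83.9, 36.7 and 25.5 CPM in mice 1 to 3 against 3981 and 1621 CPM (log2 -5.95, SE 0.42, edgeR adjusted p = 5.04e-09). Ccl4 had 0, 2.45 and 0 CPM against 1908 and 383. Of 12 Th1 and cytotoxic genes 10 fell and none rose (median -3.00, beside 0.01 over all genes), and of 14 activation and memory genes 11 fell (median -1.85).

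Part of the Tfh and naive lists rose in the chimera cells. Of 7 follicle-homing genes 4 rose (median 1.92), of 12 Tfh transcription factors 5 rose and 1 fell (median 0.69), of 20 surface and costimulatory genes 6 rose and 2 fell (median 0.52), and of 11 naive genes 7 rose and 1 fell (median 1.61). Cxcr5 had 35.9, 103 and 133 against 30.2 and 20.7 CPM (log2 1.92, SE 0.43, edgeR adjusted p = 0.00515). Bcl6 rose by 1.78 on the log2 scale (11.98, 80.7 and 112 against 15.1 and 24.4 CPM, adjusted p = 0.0168), though mouse 1 lay below both ∆Foxp3 samples. It lost the call under DESeq2 (adjusted p = 0.131) and in edgeR without mouse 3 (0.103), mouse 2 (0.0872), the first (0.141) or the second 3-week sample (0.107). Tcf7 had 581, 528 and 586 against 151 and 210 CPM (1.61, adjusted p = 3.62e-06). Sostdc1 had 59.9, 384 and 469 against 12.1 and 39.4 CPM (3.46, adjusted p = 0.000141). The other core markers had log2 differences of 0.77 for Tox2 (adjusted p = 0.206), 0.55 for Pdcd1 (0.337) and 0.06 for Il21 (0.952). Cxcr5 lost its call without cells that hold markers of other types (adjusted p = 0.0501) and without the second 3-week sample (0.131). The number of calls was 304 without the cells of mouse 2, 146 without the first and 133 without the second 3-week ∆Foxp3 sample. The plot of levels by sample shows the chemokine and cytotoxic genes high in the 3-week ∆Foxp3 samples and the receptor genes from Il6ra to Gpm6b low in those of V3.

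**Figure D5:**
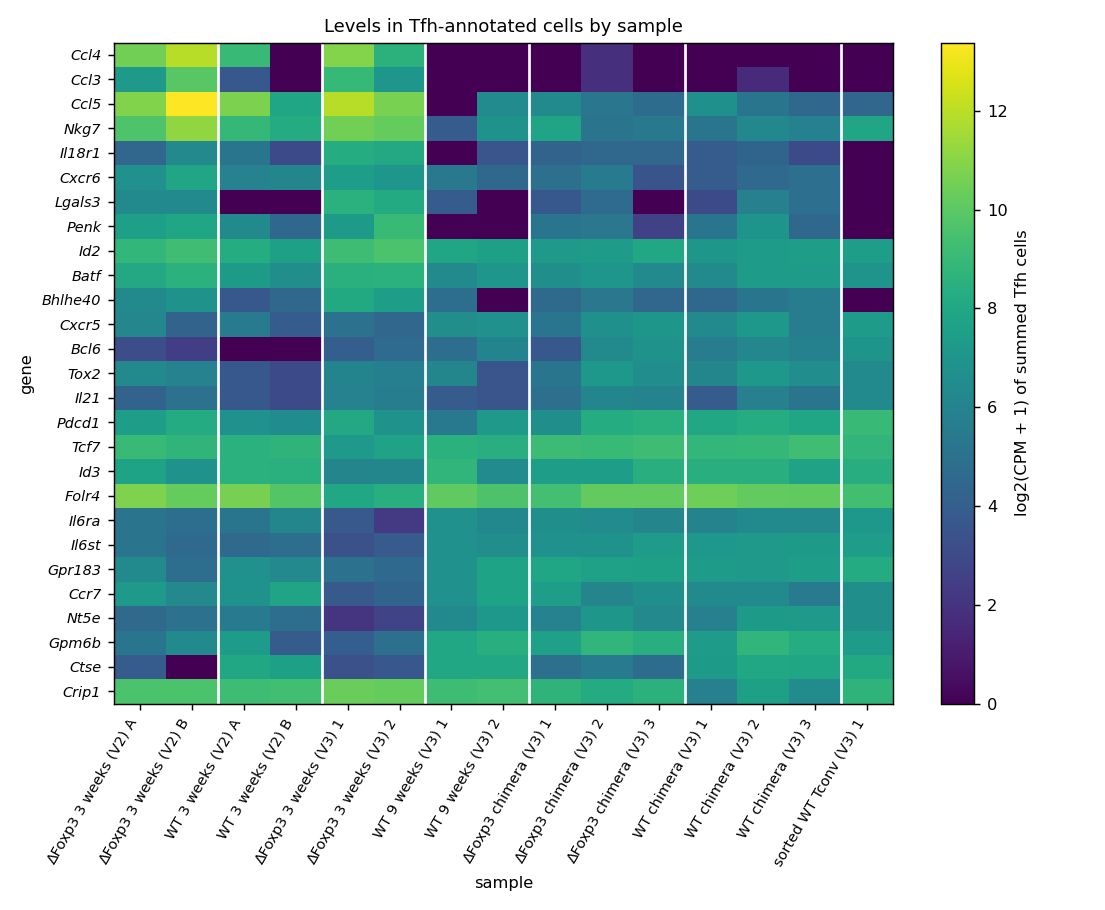
Levels of 27 genes in Tfh cells, as log2(CPM + 1) of summed cells, in the 15 samples with at least 10 Tfh cells, with white lines between groups. Ccl4 was 1457 and 3899 CPM in the V2 and 1908 and 383 CPM in the V3 ∆Foxp3 samples, and at most 531 CPM in every other sample shown.

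Whether the genotype difference in Tfh cells was unlike that in the other activated cells of the same samples was tested with an interaction term in edgeR. In V2 16 genes passed (0.208% of 7683), in V3 13 (0.172% of 7551) and in the chimeras 1 (0.0132% of 7551), with 540, 542 and 386 genes at an unadjusted p under 0.05. In V3 the list was led by Ccl5. Its mean level was 2801 against 42.9 CPM in the Tfh cells of ∆Foxp3 and WT samples, but 3795 against 3215 CPM in their other activated cells (interaction log2 5.61, adjusted p = 8.36e-15). Resting Tconv cells, which are not in this test, had a Ccl5 difference like that of the Tfh cells, as given above, so it was not limited to Tfh cells. In V2 Klf2 had 213 against 775 CPM in Tfh cells and 1191 against 1108 CPM in other activated cells (-1.82, adjusted p = 0.00166). Icos had 316 against 154 CPM in Tfh cells and 131 against 157 CPM in other activated cells (1.47, adjusted p = 0.0200). These fits hold each sample as a block, and without that replicate block 0, 1 and 0 genes passed.

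The reporter alleles were read separately. ∆Foxp3 and WT mice carry different GFP alleles, and ∆Foxp3 mice also ROSA-YFP, so their GFP shares are not like measures. Any part of YFP transcripts or free RNA in the GFP counts was not tested. GFP transcripts were found in 42 of 147 (28.6%) and 19 of 71 (26.8%) Tfh cells of the V2 ∆Foxp3 samples and in 58.1% and 49.1% in V3. Other activated cells of the same samples had 24.2% and 24.2% in V2 and 39.6% and 46.3% in V3, and resting cells 6.75% and 8.35% in V2 and 35.7% and 31.7% in V3. In WT Tfh cells the shares were 7.14% and 0 of 50 (upper limit 7.11%) in V2 and 18.8% and 6.67% in V3. In the chimeras they were 2.78%, 7.79% and 0 of 41 (upper limit 8.60%) in ∆Foxp3 and 14.8%, 2.97% and 3.33% in WT Tfh cells of mice 1 to 3. Foxp3 itself had 0 to 3 UMIs in the Tfh cells of a sample, and Cre was seen in no WT Tfh cell.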

How the data were processed

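The cells come from mouse spleen samples whose reads were processed with Cell Ranger 3.0.2 and the mm10 build, per the submitters' processing notes. The strand setting and the assignment of reads to genes are not given in the sources used here. The deposited matrix holds raw UMI counts of 33006 genes in 26652 cells, and the authors' cell table gives clusters, classes, samples and separate counts of Foxp3, GFP and Cre. The mitochondrial and ribosomal percent and the doublet score of that table are the authors' values. In 92.2% of cells the matrix sum equalled the deposited UMI total. The matrix row of Foxp3 equals Foxp3 plus GFP in WT cells and Foxp3 plus Cre in ∆Foxp3 cells (100% of cells), so it was left out and the separate columns were used. The cell table names the V3 kit for all cells, and the labels were followed for the kit. A further 46 columns of the cell table were not used. No cell was removed, and the highest doublet score was 0.293, or 0.284 among Tfh cells. Of all cells, 198 share 99 barcodes between samples.

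Groups were taken from the sample labels. Raw counts were summed over the Tfh cells of each sample with at least 10 such cells. Genes were kept by filterByExpr with a minimum count of 10 and tested with edgeR 4.0.16 (TMM, quasi-likelihood) in R 4.3.3 with limma 3.58.1, fitting V2 apart from V3. The V3 gene fits within Tfh cells held every V3 sample with at least 10 Tfh cells, with a mean per group and a shared spread. The chimera groups and a sorted Tconv sample were thus in them. The V3 share fits held the unsorted V3 samples. Adjusted p-values are Benjamini-Hochberg values over all genes tested, with a threshold of 0.05. Cell numbers of all clusters were tested the same way, and adjusted over all clusters and comparisons of an experiment. Single values were tested by exact permutation over samples. Log2 ratios between classes use a prior count of 2. Thinning drew 1500 UMIs per cell. Tables and plots used Python 3.11.15 with numpy 2.4.6, pandas 2.3.3, scipy 1.17.1 and matplotlib 3.10.9, and DESeq2 1.42.0 served as an alternative. The procedures were tested on simulated data.

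The genes named are the core markers, the 10 called genes with the highest difference and the 10 at the other end, and called members of the lists. For identity, these are the highest and lowest median ratios among genes with at least 20 CPM and the same sign in every sample used. The 25 lists hold 297 members, and 289 of them have their symbol in the matrix, 7 an older symbol and 1 no match. The members and the lists were chosen with earlier results of these data known. Same-numbered chimera samples share a hashtag and were taken to come from the same mouse. Over genes, their deviations from the group means correlated at 0.119, 0.206 and 0.0122 for mice 1 to 3. Alternatives were DESeq2's size factors and Wald test, no filter on low counts, a minimum of 20 cells, cells with at least 2 UMIs of other types' markers left out, a replicate block, other reference cells or denominators, and each sample left out in turn. The 10x channel as a covariate and the removal of chimera mouse 2 were chosen after seeing the data.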

Additional observations from a re-analysis of the deposited data

Results flagged for a closer look

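The genes below differed in their ∆Foxp3 to WT effect between Tfh cells and the other activated Tconv cells of the same samples, tested by an interaction term in edgeR. Each value is the interaction on the log2 scale with its adjusted p, followed by mean CPM of ∆Foxp3 and WT samples.

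In V2, Lmo4 had an interaction of 3.88 (edgeR adjusted p = 0.0192), with 27.0 against 17.4 CPM in Tfh cells and 10.2 against 106 CPM in other activated cells. Its WT Tfh mean comes from 5 UMIs, with an SD of 24.7 CPM that exceeds the mean. Cd160, an immunoglobulin-like receptor, had 2.38 (adjusted p = 0.00211), from 227 against 66.8 and 97.0 against 148 CPM. The chemokine receptor Cxcr3 had 2.31 (adjusted p = 0.00211), from 310.2 against 84.5 and 313 against 398 CPM. Sptssa had 1.89 (adjusted p = 0.00211) and Icos 1.47 (adjusted p = 0.0200). The other direction was seen for Spp1 (osteopontin) at -8.19 (adjusted p = 0.00853), with 16.0 against 224 CPM in Tfh cells and 3.11 against 0 CPM in other activated cells. The WT Tfh mean rests on 1 sample, with 448 CPM in WT A and 0 in WT B. Iqgap2 had -7.96 (adjusted p = 0.0409), from 0 against 43.2 and 29.4 against 38.1 CPM. Lag3 had -2.99 (adjusted p = 0.0192), from 346 against 132 and 149.7 against 6.11 CPM, and Klf2 -1.82 (adjusted p = 0.00166). The WT Tfh mean of Lag3 comes from 24 UMIs, with an SD of 147 CPM that exceeds the mean. Ccl4 had -4.17 (adjusted p = 0.0312), with 2678 against 265 CPM in Tfh cells and 191 against 0.932 CPM in other activated cells. The WT Tfh mean comes from 45 UMIs of 1 cell of WT A (1.28% of 78 cells), and WT B had 0. Values from groups at 0 depend on the prior count and are no bounds.

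In V3, Ccl4 had an interaction of 13.5 (edgeR adjusted p = 3.43e-08), with 1145 against 0 CPM in Tfh cells and 13.6 against 26.2 CPM in other activated cells. Ccl5 had 5.61 (adjusted p = 8.36e-15). Il18r1 had 3.93 (adjusted p = 0.0254), from 287 against 5.36 and 389 against 119.9 CPM, and Nkg7 3.16 (adjusted p = 2.31e-05), from 1321 against 65.8 and 1004 against 453 CPM. Ccl5 and Nkg7 were also higher in the resting Tconv cells of these ∆Foxp3 samples, which are not in this test. Rgcc had 3.62 (adjusted p = 0.00633), from 67.6 against 24.4 and 13.6 against 65.0 CPM. Smc4, a condensin subunit, had -1.16 (adjusted p = 0.0254), and H2afz, a histone variant, -0.97 (adjusted p = 0.0170), from 1559 against 971 and 3261 against 969.9 CPM. In the chimeras Gm2663 had 8.42 (adjusted p = 0.0283), from UMIs in the ∆Foxp3 Tfh cells of mice 1 and 2 (132 and 36.7 CPM, and 0 in mouse 3) and 25.1 CPM in the WT Tfh cells of mouse 2 alone.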

How the results depend on the processing

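Counts of called genes depended on the settings, and so did the named genes. Of the values of single genes in a comparison, 989 stayed called in the same direction, 203 lost the call and none reversed. Genes without a value in a setting are not in these numbers. All 7 V2 genes lost the call with a replicate block. Without cells holding markers of other types, 15 of the V3 genes stayed called and 26 lost the call. The V2 count of 7 became 118 with no filter, 11 with DESeq2's Wald test, 16 without cells holding markers of other types, 0 to 22 with 1 sample left out, and 0 with a replicate block, where same-numbered samples correlated at -0.0652. The V3 count of 155 became 276, 86 and 33 under the first 3 of these and 53 to 78 with 1 sample left out. The chimera count of 2 became 10 with no filter, 6 with the block and 1 to 2 with 1 sample left out. For chimera against 3-week ∆Foxp3 cells, 428 became 166 with DESeq2, 187 without cells holding other markers and 133 to 412 with 1 sample left out. Without the replicate block, interactions numbered 0 in V2, 1 in V3 and 0 in the chimeras, where 16, 13 and 1 were reported. With 1 sample left out they were 22 to 40, 4 to 11 and 0 to 19. With NKT and dividing clusters left out of the other activated cells they were 8 in V3 and 3 in the chimeras. A fit that leaves an arm with 1 sample assumes that it varies like the others.

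Tfh shares as log2 differences, by edgeR, were 1.87 to 3.13 in V2 with 1 sample left out and 1.16 of activated cells. With the replicate block, which joins V2 samples by letter with no label that links them, the V2 value was 2.49 (adjusted p = 6.98e-05). The value of the chimeras with the block was -0.33. In V3 the differences were 0.22 to 1.33, and -0.66 of activated cells. Between the genotypes of the chimeras they were -1.29 to 0.18, with 0.18, 0.13 and 0.06 without ∆Foxp3 mouse 1, ∆Foxp3 mouse 3 and WT mouse 2, and -0.97 without mouse 2. Chimera against 3-week ∆Foxp3 cells gave -1.43 to -0.023, and 1.01 of activated cells, and WT chimera against 9-week cells 0.02 to 1.13. With resting Tconv as reference, 446 identity genes were higher, and Ccl5 (0.96) and Lgals3 (0.63) reversed. Apart from the smaller number of samples or genes, the cause of these changes was not tested. A minimum of 20 cells leaves no WT sample at 9 weeks, so V3 was not refitted under it. With 31 WT Tfh cells in V3 and 78 in V2, low genes such as Bcl6 were at or near 0 UMIs, and differences in them were not detectable at this depth.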
